A study of Mus musculus with 16 samples.

Results

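The prostaglandin genes of muscle mesenchymal stromal cells (mSC) are described here, from the release of the lipid precursor to the receptors of the finished mediators. The members are the rows of the gene count table with the symbols Pla2g4a, Ptgs1, Ptgs2, Ptges, Ptgis, Hpgd, Ptger2, Ptger3, Ptger4 and Ptgfr, which makes 10 of 52997 genes. The cells came from hindlimb skeletal muscle of C57BL/6 mice aged 8 weeks, a wild-type inbred strain, and no other allele is labelled. Mice were injected intraperitoneally with CGRP (calcitonin gene-related peptide, a neuropeptide of sensory nerves) or with phosphate-buffered saline (PBS), and cells were taken 4 h or 8 h afterwards. The 4 groups are CGRP at 4 h, PBS at 4 h, CGRP at 8 h and PBS at 8 h, each with 4 biological replicates and 1 library of 1000 double-sorted cells per replicate. The sources used here do not say if a replicate pools several mice, and give no sorting gate, dose or collection day.

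Prostaglandins are short-lived lipid signals made on demand. A phospholipase frees arachidonic acid from membranes, a cyclooxygenase turns it into a shared intermediate, and terminal synthases convert that into prostaglandin E2, prostacyclin or other prostanoids, which act on G-protein-coupled receptors of nearby cells before a dehydrogenase breaks them down. In muscle, prostaglandins made after injury or exercise act on blood vessels, nerve endings, muscle stem cells and stromal cells.

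Libraries held 6373713 to 10011920 counts over all genes, and all 10 members were among the 13949 genes that passed the filter on low counts. Levels are in CPM (counts relative to library size, scaled by the TMM method), and "rose" or "fell" stands for an adjusted p under 0.05 in edgeR's quasi-likelihood test with Benjamini-Hochberg adjustment over all 13949 genes. Summed over 10 mSC markers, levels were 141000 to 188000 CPM per library, most of it gelsolin, and the leukocyte gene Ptprc averaged 0.176 to 0.540 CPM per group. The sum of 10 pericyte and smooth muscle markers was 92.7 to 110 CPM after CGRP and 136 to 184 CPM after PBS at 4 h, and 145 to 210 CPM after CGRP and 162 to 218 CPM after PBS at 8 h. PBS 4 h replicate 4, PBS 8 h replicates 1 and 4 and CGRP 4 h replicate 3 stood apart by the most genes detected, 23294 to 25579 against 21138 to 22341 in the others. In PBS 8 h replicates 1, 2 and 3 the gene model Gm10800 took 1.77% to 2.45% of counts, above the 1.01% reached elsewhere, and its part in the 8 h results was not tested. In sorted bulk samples, fewer cells of a type and less RNA per cell cannot be told apart.

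The members the results turn on are Ptgs2, which encodes the inducible cyclooxygenase COX-2, and Ptgfr, which encodes FP, the receptor of prostaglandin F2-alpha. Their RefSeq promoter windows (GRCm38.p6, 250 bases before to 50 after the annotated start, on the strand of the gene) are shown because these genes were called in opposite directions after CGRP at 4 h. Capitals in the Ptgs2 window at chr1:150099781-150100080 (+) mark a C/EBP-type match TTGCGCAA beginning 69 bases upstream of the start, and the overlapping matches ACGTCA and CACGTG beginning at bases 13 and 17 downstream of it.
Ptgs2: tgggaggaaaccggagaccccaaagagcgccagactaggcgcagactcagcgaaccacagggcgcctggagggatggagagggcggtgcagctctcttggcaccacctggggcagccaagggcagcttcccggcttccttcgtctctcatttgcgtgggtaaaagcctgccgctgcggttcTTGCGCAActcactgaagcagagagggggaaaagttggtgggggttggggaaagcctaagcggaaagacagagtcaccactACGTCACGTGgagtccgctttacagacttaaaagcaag
The Ptgfr window at chr3:151837479-151837778 (-) held none of these letters on either strand and has no capitals.
Ptgfr: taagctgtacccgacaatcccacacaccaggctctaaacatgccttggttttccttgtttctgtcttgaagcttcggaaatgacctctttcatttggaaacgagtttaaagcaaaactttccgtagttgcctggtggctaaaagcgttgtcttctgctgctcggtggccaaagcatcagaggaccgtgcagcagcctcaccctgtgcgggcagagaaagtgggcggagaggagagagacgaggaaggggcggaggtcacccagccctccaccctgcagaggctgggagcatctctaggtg
Searched on both strands, ACGTCA (the core of the cyclic AMP response element) occurred in 7.51% of the 32851 promoter windows, CACGTG (an E-box) in 7.15%, TTGCGCAA in 0.183% and the full element TGACGTCA in 1.79%. A window was found for 9 of the 10 members, and of these 9 only Ptgs2 held any of the 4 motifs. The motifs were chosen after the Ptgs2 sequence was seen, and a match of letters is not a binding site.

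Per kilobase of exons, the synthases of prostaglandin E2 and prostacyclin were the most abundant members and the E-type receptors the least. Over the 16 libraries Ptges averaged 39.0 ± 3.82 and Ptgis 36.2 ± 7.93 CPM per kb (SD). Pla2g4a followed at 12.4 ± 2.06, Ptgs1 at 9.22 ± 1.72, Hpgd at 8.88 ± 5.16, Ptgfr at 6.69 ± 1.84 and Ptgs2 at 4.73 ± 3.18 CPM per kb. The E-type receptor genes came last, with 1.86 ± 0.481 for Ptger4, 0.630 ± 0.305 for Ptger2 and 0.427 ± 0.287 CPM per kb for Ptger3. The ranges of neighbours in this order overlapped except for Ptgis (19.9 to 54.9) and Pla2g4a (9.82 to 17.3 CPM per kb). Within libraries, Ptgs2 was above Ptger4, and Ptger4 above Ptger2, in 16 of 16, whereas Ptges was above Ptgis in only 10 of 16.

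**Figure D1:**
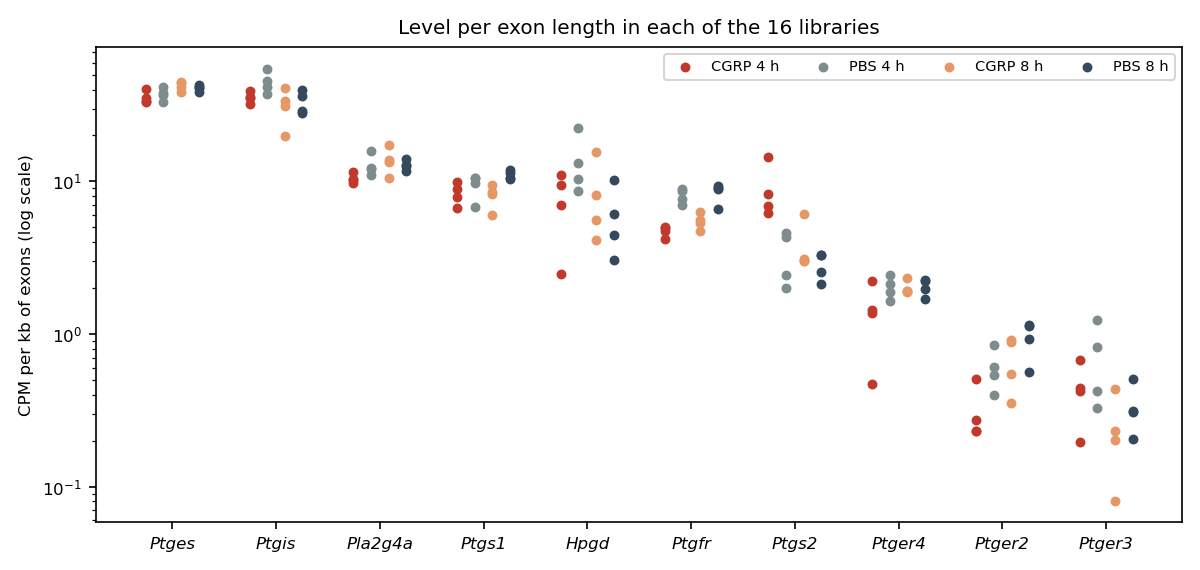
Level of each prostaglandin gene in CPM per kilobase of exons (log scale), 1 point per library, with groups coloured from left to right as CGRP 4 h, PBS 4 h, CGRP 8 h and PBS 8 h. Ptges and Ptgis lie highest, the E-type receptor genes Ptger4, Ptger2 and Ptger3 lowest, and Ptgs2 spans 2.00 to 14.4 CPM per kb.

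At 4 h after injection, CGRP and PBS were compared to ask which of these genes differed soon after the peptide. The cyclooxygenase gene Ptgs2 rose 2.70-fold and the receptor gene Ptgfr fell to 0.582 of the PBS level. These 2 calls of 10 members (20%) stand beside 16.2% of all genes tested in this comparison, 7.84% that rose and 8.37% that fell, a share near that background. Log2 fold changes were below 0 for 9 of the 10 members, with a median of -0.45 against -0.00212 over all genes tested. The unadjusted edgeR p was under 0.05 for 5 of the 10 members, beside 4029 of the 13949 genes tested. At 8 h Ptgfr alone was called, 1 of 10 members (10%) against 8.67% of all genes, of which 3.67% fell. The median was then -0.05 against -0.02, with 6 of 10 members below 0. The difference between both effects was called for 0 of 10 members by edgeR (1.12% of all genes, 0.695% upward and 0.423% downward). Its unadjusted p was under 0.05 for 2 of 10 members, Pla2g4a and Ptgs2, beside 1996 of the 13949 genes. The members share libraries, so their signs are not independent.

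**Figure D2:**
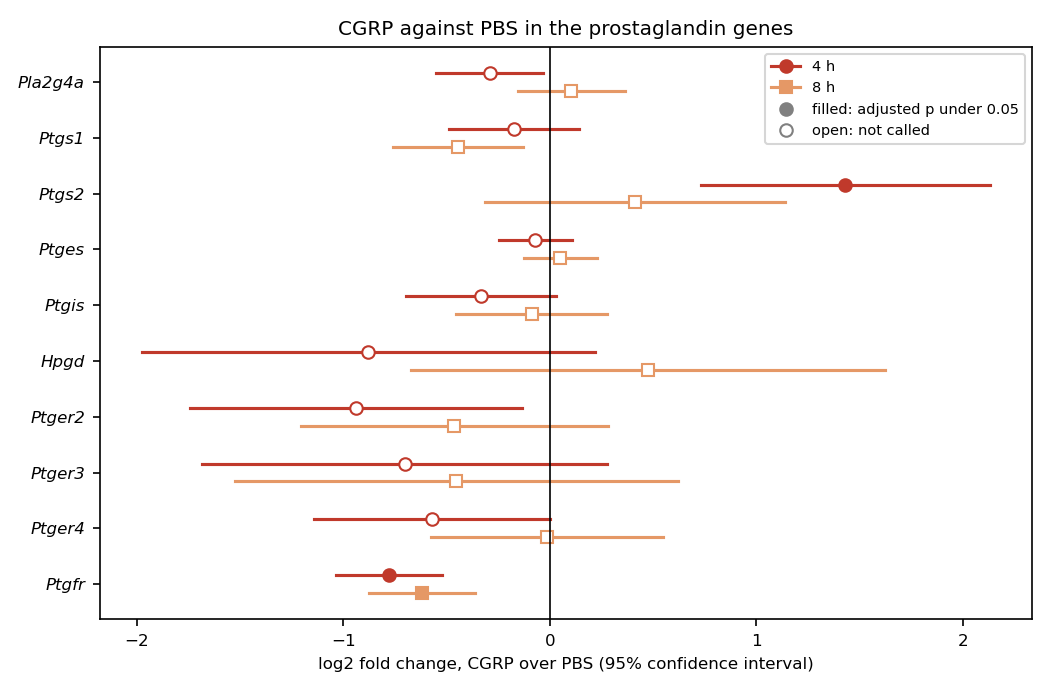
Log2 fold change of CGRP over PBS for the 10 prostaglandin genes at 4 h (circles) and 8 h (squares) with 95% confidence intervals from the edgeR fit. Filled symbols are the 3 calls, which are Ptgs2 at 4 h (1.43) and Ptgfr at 4 h (-0.78) and 8 h (-0.62).

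Release of arachidonic acid is represented by Pla2g4a (chr1:149829618-149961290, minus strand, GRCm38), the cytosolic phospholipase A2, which lies close to Ptgs2 on chromosome 1. It was 62.8 to 73.3 CPM after CGRP at 4 h, against 70.1 to 101 CPM after PBS. The groups overlapped slightly and the log2 fold change was -0.29 ± 0.13 (SE; adjusted p = 0.122). At 8 h the ranges were 67.3 to 110 CPM after CGRP and 75.1 to 90.2 CPM after PBS, and the log2 fold change was 0.10 ± 0.13 (adjusted p = 0.692). The 8 h effect less the 4 h effect was 0.39 ± 0.18 (95% interval 0.03 to 0.76, adjusted p = 0.299).

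Ptgs2 (chr1:150100031-150108227, plus strand, GRCm38) was the member with the largest fold change. It had 31.5, 37.7, 28.4 and 66.1 CPM in the CGRP 4 h libraries, against 21.0, 11.1, 19.9 and 9.16 CPM in the PBS 4 h libraries. Every CGRP library was above every PBS library, and CGRP replicate 4 was the highest of all 16. The log2 fold change was 1.43 ± 0.33 (95% interval 0.73 to 2.13, adjusted p = 0.00756), and the exact permutation test, two-sided on log2 CPM, gave p = 0.0286, the smallest possible with 4 against 4 libraries. Groups without overlap were seen at 4 h for 2 of 10 members, Ptgs2 and Ptgfr, and for 18.9% of all genes. With each replicate left out in turn the log2 fold change stayed between 1.11 and 1.64 and the adjusted p between 0.00566 and 0.0278.

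At 8 h Ptgs2 was at 13.8, 13.7, 14.3 and 28.1 CPM after CGRP, against 9.80, 11.7, 15.2 and 15.2 CPM after PBS. CGRP replicate 4 was above every PBS library, and the other CGRP libraries lay within the PBS range. The log2 fold change at 8 h was 0.41 ± 0.34 (95% interval -0.31 to 1.14, adjusted p = 0.534). Tested directly, the 8 h effect less the 4 h effect was -1.02 ± 0.47 (unadjusted p = 0.0472, adjusted p = 0.338), so a difference between times was not shown over all genes.

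Between times, 8 h against 4 h after CGRP called 1 of 10 members (10%, beside 7.26% of all genes, 4.2% upward and 3.05% downward), and this was Ptgs2. It fell by 1.24 ± 0.32 on the log2 scale (adjusted p = 0.0302), with all CGRP 8 h libraries below all CGRP 4 h libraries, as in 1 of 10 members and 12.4% of all genes without overlap. The gap was narrow, between CGRP 8 h replicate 4 (28.14 CPM) and CGRP 4 h replicate 3 (28.4 CPM). The call was lost with no low-count filter (adjusted p = 0.0606), when only these groups were fitted (0.06), and without CGRP 4 h replicate 2 (adjusted p = 0.0527) or 4 (0.0781), or CGRP 8 h replicate 1 (0.0905), 2 (0.102) or 3 (0.0989), while the log2 fold change stayed between -1.56 and -0.91. Pla2g4a (0.40 ± 0.13, adjusted p = 0.0573), Ptges (0.25 ± 0.09, adjusted p = 0.0773) and Ptger2 (1.12 ± 0.39, adjusted p = 0.0813) were the next members by p in the CGRP libraries. DESeq2 called Pla2g4a and Ptges beside Ptgs2. Among PBS libraries 8 h against 4 h called 0 of 10 members by edgeR (0.516% of all genes, 0.265% upward and 0.251% downward). There the unadjusted p was under 0.05 for 3 of 10 members, beside 1817 of the 13949 genes tested. These 3 were Ptgis (-0.43 ± 0.17, adjusted p = 0.287), Ptger3 (-1.08 ± 0.49, adjusted p = 0.345) and Hpgd (-1.21 ± 0.52, adjusted p = 0.345). Groups without overlap numbered 0 of 10 members there, beside 7.52% of all genes. Ptgs2 had a log2 fold change of -0.22 ± 0.34 there (adjusted p = 0.85).

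Ptgs1 (chr2:36230426-36252272, plus strand), which encodes the constitutive cyclooxygenase COX-1, was not called at either time. At 4 h it was 26.1 to 38.5 CPM after CGRP and 26.6 to 41.2 CPM after PBS, with a log2 fold change of -0.17 ± 0.15 (adjusted p = 0.493). Its 8 h libraries had 32.0, 33.1, 36.9 and 23.2 CPM after CGRP, against 44.0, 46.3, 40.1 and 40.7 CPM after PBS. The groups did not overlap (exact permutation p = 0.0286, the smallest possible), as for 2 of 10 members, Ptgs1 and Ptgfr, and 14.8% of all genes at 8 h. The model gave -0.44 ± 0.15 with an adjusted p of 0.0705, which passed without CGRP 8 h replicate 3 (0.049) and when the 8 h groups were fitted alone (0.0422). Reads from Ptgs1 and from Gm43621, which lies opposite 3.81% of its exon length, cannot be separated because the libraries do not mark strand. Gm43621 held 37 counts over all libraries against 4719 for Ptgs1. The counting settings are not given, so such counts do not show how reads of the shared stretch were assigned, here or in the other members.

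Per kilobase, Ptgs2 made up 50.3% ± 12.0 of the summed cyclooxygenase level after CGRP at 4 h and 26.3% ± 10.8 after PBS at 4 h (SD, n = 4 each). At 8 h the shares were 32.0% ± 12.5 after CGRP and 20.5% ± 4.33 after PBS. The 4 h libraries ran from 43.5% to 68.3% after CGRP and from 16.1% to 38.8% after PBS. In these cells the transcript of COX-1 was the larger part of the cyclooxygenase level in every PBS library. The same held in CGRP replicates 1, 2 and 3 at both times. Only in CGRP replicate 4 was Ptgs2 the larger part, at 68.3% at 4 h and 50.7% at 8 h.

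**Figure D3:**
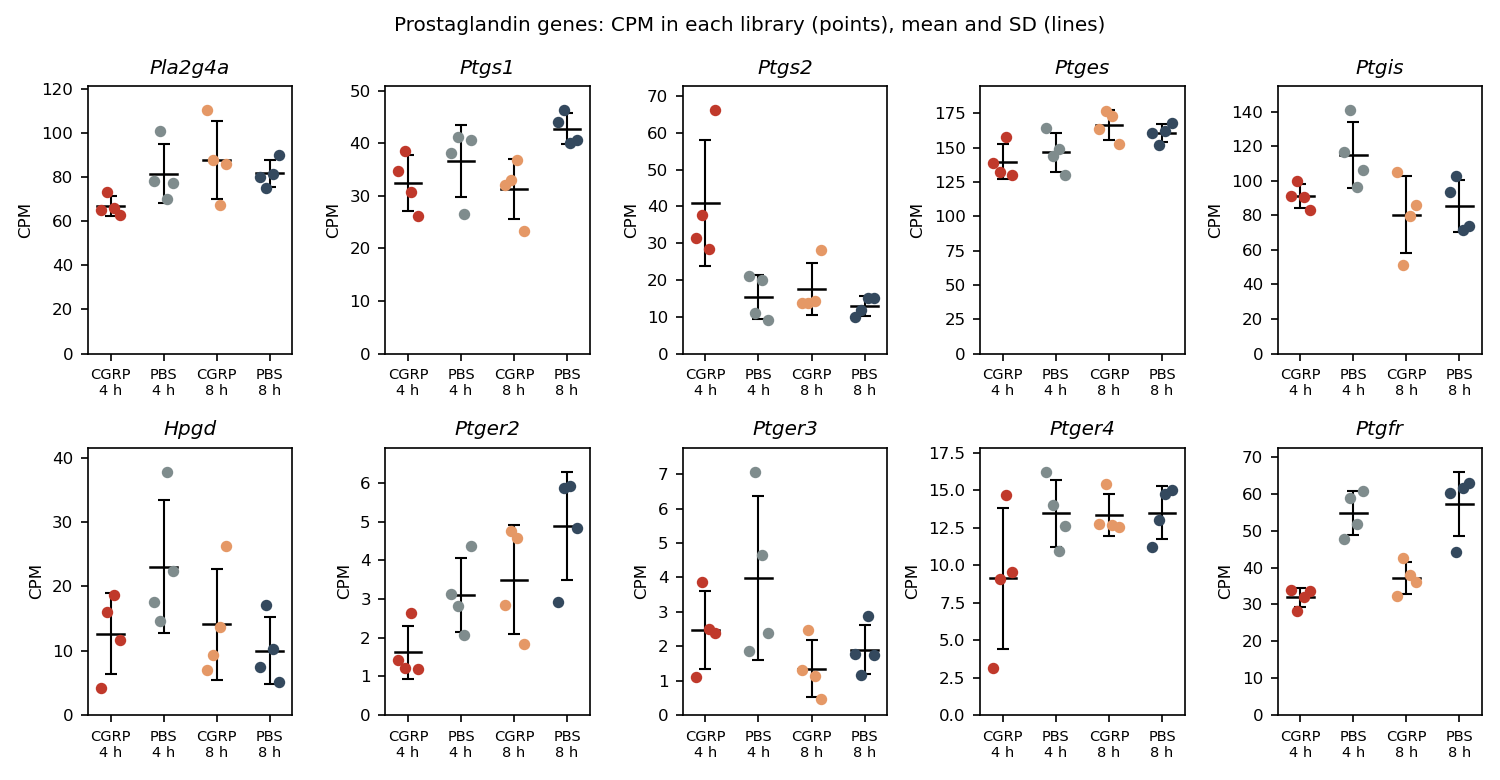
CPM of each prostaglandin gene in every library (points), with group mean and SD (lines), for CGRP 4 h, PBS 4 h, CGRP 8 h and PBS 8 h from left to right. The 4 Ptgs2 points after CGRP at 4 h, 28.4 to 66.1 CPM, lie above all PBS points, and the Ptgfr points after CGRP, 28.3 to 42.7 CPM, lie below the PBS points of 44.4 to 63.0 CPM.

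Both terminal synthases among the members were uncalled. Ptges (chr2:30889471-30929863, minus strand), the inducible microsomal prostaglandin E synthase, averaged 140 ± 12.7 CPM after CGRP and 147 ± 14.3 CPM after PBS at 4 h, and 166 ± 10.7 CPM after CGRP and 161 ± 6.54 CPM after PBS at 8 h (SD, n = 4 each). It had the narrowest intervals of the members, a log2 fold change of -0.25 to 0.11 at 4 h (adjusted p = 0.654) and -0.13 to 0.23 at 8 h (adjusted p = 0.788). Ptgis (chr2:167191805-167240604, minus strand), the prostacyclin synthase, averaged 91.3 ± 6.86 CPM after CGRP and 115 ± 19.0 CPM after PBS at 4 h, a log2 fold change of -0.33 ± 0.17 (adjusted p = 0.214). At 8 h it averaged 80.5 ± 22.4 CPM after CGRP and 85.5 ± 15.2 CPM after PBS (-0.09 ± 0.17, adjusted p = 0.831). The 1110018N20Rik model lies opposite 6.08% of the Ptgis exons, with 36 counts against 12311.

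Hpgd (chr8:56294585-56321043, plus strand) encodes 15-hydroxyprostaglandin dehydrogenase, the enzyme that begins prostaglandin breakdown, and was among the most variable members. It had 4.16, 15.96, 18.6 and 11.7 CPM after CGRP at 4 h, against 17.5, 14.6, 37.8 and 22.4 CPM after PBS at 4 h. Values at 8 h were 6.98, 9.38, 13.8 and 26.3 CPM after CGRP, against 7.51, 17.1, 10.3 and 5.11 CPM after PBS. Groups overlapped at both times, and single libraries set the extremes. Log2 fold changes were -0.88 ± 0.51 at 4 h (adjusted p = 0.286) and 0.48 ± 0.53 at 8 h (adjusted p = 0.67), with 95% intervals of -1.98 to 0.22 and -0.67 to 1.62 that both span 0.

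Among the receptors, Ptgfr (chr3:151796502-151837630, minus strand) gave the most regular difference. FP signals mainly through calcium. At 4 h its level was 33.8, 28.3, 32.0 and 33.7 CPM in the CGRP libraries, against 47.7, 59.0, 51.9 and 60.7 CPM in the PBS libraries. The groups were far apart, and the log2 fold change was -0.78 ± 0.12 (95% interval -1.04 to -0.52, adjusted p = 0.000164). Later, at 8 h, the level was 32.3, 42.7, 38.0 and 36.2 CPM after CGRP, against 60.2, 44.4, 61.7 and 63.0 CPM after PBS. Again all CGRP libraries were below all PBS libraries, by a narrow gap between CGRP replicate 2 and PBS replicate 2, and the log2 fold change was -0.62 ± 0.12 (95% interval -0.88 to -0.36, adjusted p = 0.00321). The exact permutation p was 0.0286 at each time. Subtracting the 4 h effect from the 8 h effect gave 0.16 ± 0.17 (95% interval -0.20 to 0.52, adjusted p = 0.736).

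Leaving out each replicate in turn kept the Ptgfr call at both times, with log2 fold changes of -0.83 to -0.72 at 4 h and -0.72 to -0.55 at 8 h. Without the 4 libraries with the most genes detected, which leaves 2 PBS libraries at 8 h, the 8 h value was -0.50 (adjusted p = 0.117). The sum of pericyte and smooth muscle markers was also lower after CGRP at 4 h with no overlap (92.7 to 110 against 136 to 184 CPM). Most of the sum was Cspg4, with a mean of 34.9 CPM after CGRP and 79.8 CPM after PBS, and Des, with 49.9 CPM and 54.2 CPM. Group means were lower after CGRP for 8 of the 10 markers at 4 h and higher for 2, Kcnj8 (5.83 CPM after CGRP, 4.26 CPM after PBS) and Cnn1 (0.612 CPM after CGRP, 0.327 CPM after PBS). The marker sums at 8 h overlapped (145 to 210 against 162 to 218 CPM). All 10 markers had counts in each group. The mSC marker sum, mostly Gsn (gelsolin), was lower after CGRP at both times with no overlap (147000 to 154000 against 164000 to 188000 CPM at 4 h, 141000 to 160000 against 164000 to 177000 CPM at 8 h). At each time 8 of the 10 mSC markers had lower means after CGRP and 2, Pdpn and Ly6a, had higher means. Pdpn averaged 953 CPM after CGRP and 431 CPM after PBS at 4 h, and 856 CPM and 335 CPM at 8 h. Ly6a averaged 2640 CPM after CGRP and 2210 CPM after PBS at 4 h, and 2210 CPM and 1730 CPM at 8 h. The sum of 10 endothelial markers, mostly Tek, was 79.2 to 106 CPM after CGRP and 109 to 132 CPM after PBS at 8 h. Means were lower after CGRP for 7 of these 10 markers, with Cldn5 at 0, and higher for 3, Pecam1 (0.69 CPM after CGRP, 0.414 CPM after PBS), Tie1 (0.368 CPM after CGRP, 0.0732 CPM after PBS) and Cdh5 (0.258 CPM after CGRP, 0.214 CPM after PBS). The part of these markers in the Ptgfr result, and in that of Ptgs1 at 8 h, was not tested. Gm43618 lies opposite 4.85% of the Ptgfr exons, with 246 counts against 5930.

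The receptors of prostaglandin E2 were low and none was called. Ptger2 (chr14:44988195-45003820, plus strand) and Ptger4 (chr15:5206661-5244187, minus strand) encode EP2 and EP4, which raise cyclic AMP, the second messenger that the CGRP receptor also raises. Ptger2 had 14, 10, 21 and 9 counts in the CGRP 4 h libraries, against 22, 27, 16 and 42 counts in the PBS 4 h libraries. Only CGRP replicate 3 and PBS replicate 3 overlapped, and the log2 fold change was -0.94 ± 0.39 (95% interval -1.74 to -0.13, adjusted p = 0.106). Ptger4 had 3.15, 9.07, 14.7 and 9.58 CPM after CGRP at 4 h, against 16.2, 14.04, 11.0 and 12.6 CPM after PBS at 4 h, a log2 fold change of -0.57 ± 0.27 (adjusted p = 0.172). CGRP replicate 3 was the library within the PBS range in both genes. Without it both were called, with log2 fold changes of -1.26 for Ptger2 (adjusted p = 0.0421) and -0.89 for Ptger4 (adjusted p = 0.027), and the members called at 4 h were then 4. Without all 4 libraries with the most genes detected, of which it is 1, Ptger4 was at -0.93 (adjusted p = 0.0475).

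For the 8 h groups the log2 fold change was -0.46 ± 0.36 for Ptger2 (adjusted p = 0.493) and -0.01 ± 0.27 for Ptger4 (95% interval -0.57 to 0.55, adjusted p = 0.986). Ptger4 levels were then 12.5 to 15.4 CPM after CGRP and 11.2 to 15.1 CPM after PBS. Ptger3 (chr3:157566892-157645888, plus strand) encodes EP3, which lowers cyclic AMP, and had 3 to 68 counts per library. It averaged 2.47 ± 1.13 CPM after CGRP and 3.99 ± 2.38 CPM after PBS at 4 h, and 1.35 ± 0.840 CPM after CGRP and 1.90 ± 0.717 CPM after PBS at 8 h. Its log2 fold changes were -0.70 ± 0.47 (adjusted p = 0.357) and -0.45 ± 0.52 (adjusted p = 0.673), in overlapping groups. Opposite Ptger4, the pseudogene Gm15937 covers 15.3% of the exons (16 counts against 1609) and Ttc33 1.23% (4256 counts), and opposite Ptger2, Gm17173 covers 4.74% (9 counts against 427).

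The rest of the pathway was taken from a list of 57 further genes in the table, of which 30 passed the filter. At 4 h 2 rose and 4 fell of 30 (20%, beside 16.2% of all genes), with a median log2 fold change of -0.14. At 8 h 3 rose and none fell (10%, beside 8.67%), with a median of 0.11. The unadjusted edgeR p at 8 h was under 0.05 in either direction for 5 of the 30, beside 3158 of the 13949 genes tested. The difference between the effects was called for 2 genes (6.67%, beside 1.12%). Terminal synthase genes Ptgds, Hpgds, Tbxas1 and Akr1c18 and the receptor genes Ptgdr and Ptgdr2 did not pass the filter and were not tested.

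Breakdown gave the smallest p of the pathway at 4 h. Ptgr1, prostaglandin reductase 1, which acts on the products of Hpgd and on leukotriene B4, had 22.9, 26.5, 25.4 and 24.2 CPM after CGRP at 4 h, against 50.4, 48.9, 46.9 and 48 CPM after PBS at 4 h. It thus stood near 0.509 of the PBS level in tight groups (log2 fold change -0.97 ± 0.11, adjusted p = 5.91e-06). At 8 h it had 31.3, 39.9, 38.2 and 37.3 CPM after CGRP, against 43.4, 32.1, 39.3 and 34.8 CPM after PBS, and the groups overlapped (-0.03 ± 0.11, adjusted p = 0.921). The difference between the effects was 0.94 ± 0.16 (adjusted p = 0.00383). Ptgr1 rose at 8 h against 4 h after CGRP (0.57 ± 0.11, adjusted p = 0.0031), and after PBS its 8 h libraries were all below its 4 h libraries (-0.38 ± 0.11, adjusted p = 0.124).

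Of the 6 other terminal synthase genes tested, 1 was called at 4 h, beside 16.2% of all genes, and 2 at 8 h, beside 8.67%. Akr1b8, an aldo-keto reductase of the family that includes prostaglandin F synthases, had 60.5, 53.6, 49.5 and 54.1 CPM after CGRP at 8 h, against 35.2, 34.6, 30.8 and 31.0 CPM after PBS at 8 h. It rose by 0.72 ± 0.13 in log2 (adjusted p = 0.00128), all CGRP libraries being above all PBS libraries. At 4 h the ranges were 32.9 to 46.7 CPM after CGRP and 34.8 to 50.3 CPM after PBS (-0.18 ± 0.13, adjusted p = 0.392), and the effects differed by 0.90 ± 0.18 (adjusted p = 0.0144). Akr1b3, the mouse aldose reductase, which can also make prostaglandin F2-alpha, rose at 8 h (0.43 ± 0.10, adjusted p = 0.00989), with 54.3 to 62.8 CPM after CGRP and 42.1 to 44.0 CPM after PBS. Its call was lost without the 4 libraries with the most genes detected (adjusted p = 0.113). Ptges3, the cytosolic prostaglandin E synthase that is also the HSP90 co-chaperone p23, rose at 4 h (0.60 ± 0.17, adjusted p = 0.0184) with overlapping groups, 56.0 to 82.4 CPM after CGRP and 34.5 to 61.8 CPM after PBS. That call was lost without CGRP 4 h replicate 1 or PBS 4 h replicate 1 or 2, with a highest adjusted p of 0.0674.

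**Figure D4:**
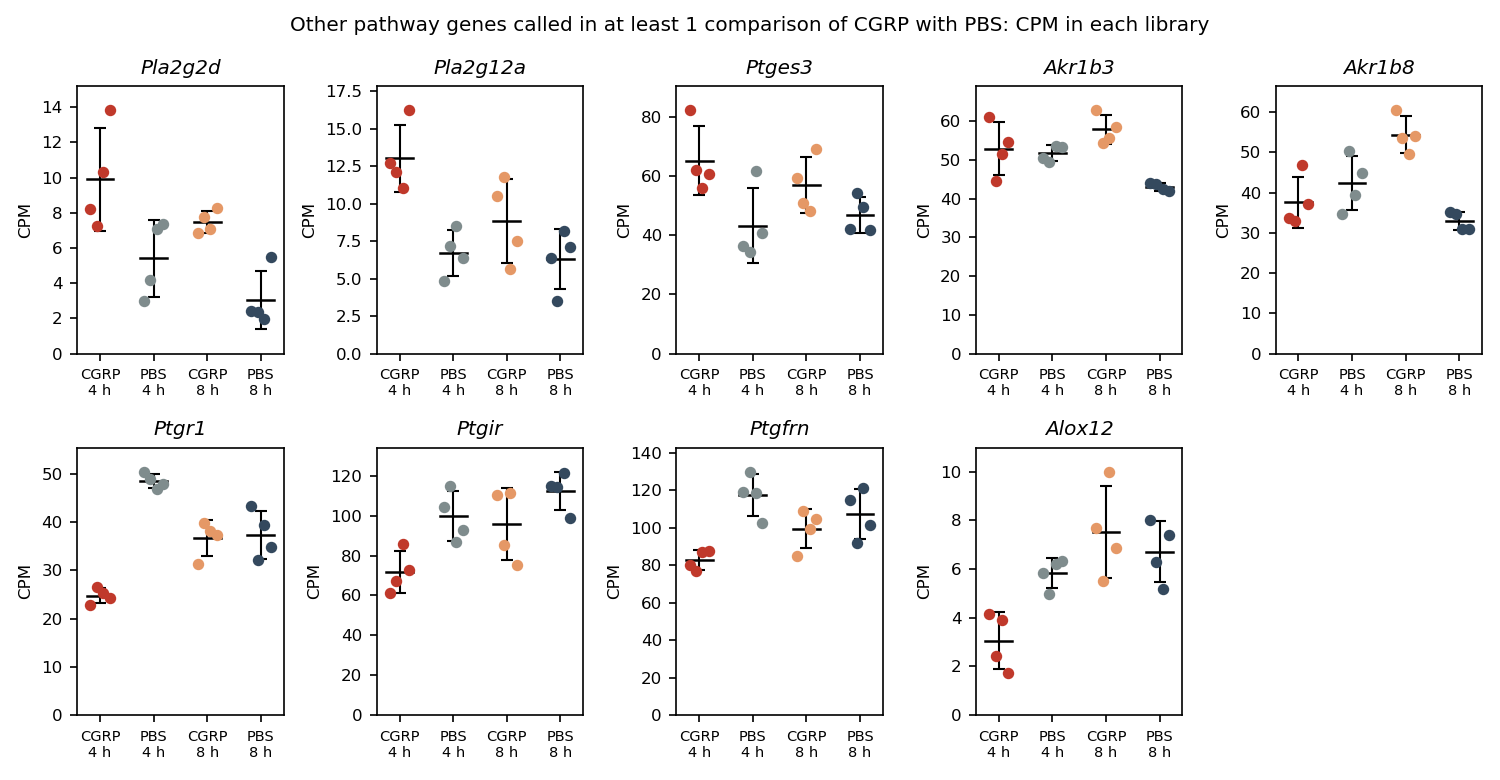
CPM in every library (points), with group mean and SD (lines), of the 9 further pathway genes called in a comparison of CGRP with PBS, for CGRP 4 h, PBS 4 h, CGRP 8 h and PBS 8 h from left to right. Ptgr1 lies at 22.9 to 26.5 CPM after CGRP and 46.9 to 50.4 CPM after PBS at 4 h, and Akr1b8 at 49.5 to 60.5 CPM after CGRP and 30.8 to 35.2 CPM after PBS at 8 h.

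Of the 10 other phospholipase and lipase genes tested, 1 rose at 4 h, where 7.84% of all genes rose, and 1 rose at 8 h, where 5% rose. Both encode secreted phospholipases A2. Pla2g12a had 12.7, 12.1, 11.1 and 16.2 CPM after CGRP at 4 h, against 4.85, 7.18, 8.52 and 6.35 CPM after PBS at 4 h, with no overlap (0.95 ± 0.26, adjusted p = 0.0138; 0.0558 without CGRP replicate 4). Pla2g2d had 6.87, 7.76, 7.08 and 8.26 CPM after CGRP at 8 h, against 2.42, 2.34, 1.98 and 5.51 CPM after PBS at 8 h, again with no overlap (1.28 ± 0.33, adjusted p = 0.0174). This call was lost without PBS 8 h replicate 1 (0.0586) or 3 (0.0601). At 4 h Pla2g2d was at 0.86 ± 0.31 (adjusted p = 0.057, under 0.05 in 8 of the 16 alternative fits), and its effects differed by 0.42 ± 0.45 (adjusted p = 0.73).

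Ptgir, the receptor of prostacyclin, carried most of the receptor level per kilobase, from 69.8% ± 2.17 (PBS 4 h) to 74.1% ± 0.975 (CGRP 4 h) of the sum over the 7 receptors Ptger1, Ptger2, Ptger3, Ptger4, Ptgfr, Ptgir and Tbxa2r (SD, n = 4). It fell at 4 h, with 61.0, 67.1, 85.7 and 72.6 CPM after CGRP against 105, 115, 86.8 and 93.1 CPM after PBS (-0.48 ± 0.13, adjusted p = 0.0119). The groups met at 85.7 and 86.8 CPM, and the call was lost without CGRP 4 h replicate 1 (adjusted p = 0.0538) or PBS 4 h replicate 2 (0.0507). At 8 h it was at -0.23 ± 0.13 (adjusted p = 0.3). Ptgfr was 16.5% ± 2.57 of the receptor sum after CGRP and 19.0% ± 2.51 after PBS at 4 h, and 14.4% ± 2.88 after CGRP and 18.1% ± 2.88 after PBS at 8 h. Ptgfrn, which encodes a membrane partner that lowers ligand binding of FP, also fell at 4 h, with 76.8 to 87.4 CPM after CGRP and 103 to 130 CPM after PBS (-0.50 ± 0.10, adjusted p = 0.00146). At 8 h it was at -0.11 ± 0.10 (adjusted p = 0.575). The pericyte and smooth muscle marker sums given for Ptgfr apply to Ptgir and Ptgfrn too, and their part was not tested.

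In the lipoxygenase branch, which competes for the same arachidonic acid, 1 of 3 tested genes was called at 4 h, beside 16.2% of all genes. Alox12, the platelet-type 12-lipoxygenase, fell at 4 h, with 41, 20, 31 and 13 counts after CGRP against 41, 48, 48 and 61 counts after PBS (-0.92 ± 0.28, adjusted p = 0.026). Scaled to library size, it was 1.73 to 4.16 CPM after CGRP and 4.99 to 6.35 CPM after PBS, with no overlap. The call was lost in 5 of the 8 fits that left out a replicate of these groups (adjusted p up to 0.101). The sum of 6 platelet markers was 31.7 to 39.6 CPM after CGRP and 26.7 to 39.2 CPM after PBS at 4 h, almost all of it Itga2b. At 8 h Alox12 was at 0.16 ± 0.26 (adjusted p = 0.782).

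Across times after CGRP, 5 of the 30 further genes rose and 1 fell at 8 h against 4 h (20%, beside 7.26% of all genes). After PBS 0 were called by edgeR (beside 0.516%). The unadjusted p after PBS was under 0.05 for 7 of the 30, beside 1817 of the 13949 genes tested. The rises after CGRP were Ptgr1, Akr1b8 (0.53 ± 0.13, adjusted p = 0.0107), Alox12 (1.29 ± 0.28, adjusted p = 0.00495), Ptgir (0.42 ± 0.13, adjusted p = 0.0444) and Tbxa2r, the thromboxane receptor. Tbxa2r and the phospholipase gene Pla2g6 lie outside the naming rule and were chosen after their values were seen. Tbxa2r had 29, 33, 31 and 12 counts after CGRP at 8 h, against 14, 6, 7 and 7 counts after CGRP at 4 h (1.53 ± 0.45, adjusted p = 0.0377). Scaled to library size, these were 1.84 to 3.56 CPM at 8 h and 0.726 to 1.42 CPM at 4 h. Pla2g6 fell by 0.84 ± 0.23 on the log2 scale (adjusted p = 0.0261). Of the 8 fits that left out a replicate of these groups, 5 ended the call of Ptgir, 6 that of Tbxa2r and 4 that of Pla2g6.

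Genes that followed Ptgs2 most closely were ranked by Pearson's r of log2 CPM over the 16 libraries. The 5 highest were Sbno2, a transcriptional co-regulator (r = 0.915), Csf1, a macrophage growth factor (0.901), Acsl4, which couples arachidonic acid to coenzyme A (0.898), and the nucleolar protein genes Nolc1 (0.892) and Utp20 (0.891). With group means removed, r was 0.784, 0.793, 0.754, 0.814 and 0.677 in the same order. The libraries share 4 groups and sizes, so these are descriptions. Acsl4 averaged 43.5 ± 10.4 CPM after CGRP and 11.3 ± 3.35 CPM after PBS at 4 h, and 18 ± 6.56 CPM after CGRP and 14 ± 0.672 CPM after PBS at 8 h (SD, n = 4 each).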

How the data were processed

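The authors deposited raw read counts per gene. The submitters' processing notes name the build mm10, the aligner STAR 2.5.4 and the counter featureCounts. Per the labels' protocols, oligo(dT)-primed RNA was amplified by PCR and made into Nextera XT libraries, which do not mark strand, and read as pairs of 25 bases. The sources used here give neither the annotation nor the settings for strand and multiply mapped reads.

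Counts were fitted with edgeR 4.0.16 in R 4.3.3: filterByExpr (13949 of 52997 genes), TMM scaling, and a quasi-likelihood fit of the 4 group means to all 16 libraries (12 residual degrees of freedom, biological coefficient of variation 17.4%). Tests were two-sided, and p-values measure only the spread between these replicates. Exact permutation tests used log2 CPM with a prior count of 0.5. Positions and exon lengths are from the GENCODE annotation of GRCm38. Within groups, 24 pairs of libraries differed by 6.52 to 22.7 times the chi-square degrees of freedom over genes with at least 20 summed counts, so none was a copy. Scripts were tested on simulated data. Alternatives were DESeq2 1.42.0, limma-voom (limma 3.58.1), other scalings, no filter, only the groups compared, a replicate block, each replicate left out, and leaving out the 4 libraries with the most genes detected.

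The members, lists and motifs were chosen with earlier results of these data known. By the naming rule, all members are given, with every other pathway gene called in a comparison of CGRP with PBS or in the difference between times, and the 5 genes most like Ptgs2.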

Additional observations from a re-analysis of the deposited data

Results flagged for a closer look

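In 3 groups of 4 libraries a member had 1 library far from the other 3 by Dixon's test. Ptgs2 was at 28.1 CPM in CGRP 8 h replicate 4, above the rest of its group. Ptger4 was at 15.4 CPM in CGRP 8 h replicate 2, also above the rest. Ptgfr was at 44.4 CPM in PBS 8 h replicate 2, below the rest. The search covered 40 groups, and chance flags about 5.0% of them.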

How the results depend on the processing

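The Ptgs2 rise and the Ptgfr fall at 4 h kept their direction and their call in all 16 alternative fits each. Members called at 4 h numbered 2, 3 without the 4 libraries with the most genes detected, and 2 to 4 with 1 replicate left out. At 8 h the 1 call became 2 with only the groups compared, 0 without the 4 libraries, and 1 to 2 with 1 replicate left out. For 8 h against 4 h after CGRP the 1 call became 3 with DESeq2, 0 with only the groups compared, 3 without the 4 libraries, and 0 to 4 with 1 replicate left out; with no low-count filter the 1 call was Pla2g4a in place of Ptgs2. The 6 further pathway genes called there became 3 to 5 with 1 replicate left out. For 8 h against 4 h after PBS, 1 member was called with no low-count filter, Ptgis. The shares of all genes called in these alternative fits are not given here, so these counts have no background beside them. Replicate numbers are not stated to pair libraries, so they were not taken as pairs. Deviations of same-numbered libraries from their group means had r of -0.0316 to 0.0919, against -0.0829 to 0.0557 for different numbers. For 8 h against 4 h after PBS these ranges were 0.014 to 0.0483 and -0.0509 to 0.0165. The replicate block gave 2 members at 4 h, 1 at 8 h and 7 further pathway genes at 4 h in place of 6. Reversals of sign were confined to uncalled values among the results recomputed. At 4 h, leaving out 1 replicate gave Ptges -0.119 to 0.000983 and Akr1b3 -0.0261 to 0.116 (-0.00747 with upper-quartile scaling). At 8 h it gave Pla2g4a -0.0242 to 0.23, Ptgis -0.243 to 0.0945, Ptger4 -0.0855 to 0.0513 (0.00899 with no low-count filter) and Ptgr1 -0.0884 to 0.0604 (0.0464 without the 4 libraries). The difference between effects for Ptger3 was -0.20 to 0.55. For 8 h against 4 h after CGRP, Ptgs1 was -0.134 to 0.0655 and Hpgd -0.32 to 0.39. After PBS, Pla2g4a was -0.0609 to 0.119 (-0.00615 with upper-quartile scaling, -0.0891 without the 4 libraries), Ptger4 -0.075 to 0.108 (-0.00137 with upper-quartile scaling) and Ptgfr -0.00042 without the 4 libraries. The cause of these shifts was not tested. Scaling moved the median of all genes by at most 0.0405 in log2. Low counts limit Ptger2, Ptger3 and Tbxa2r.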
